A study of Mus musculus with 20 samples.

Results

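Mesothelial transcripts were followed through RNA sequencing libraries of progenitor cells sorted from gonadal white fat of male mice. The 10 genes were chosen by name, by matching the symbol column of the expression table to Msln, Upk3b, Upk1b, Krt7, Krt8, Krt18, Krt19, Lrrn4, Bnc1 and Muc16, and all 10 were found among the 54304 genes listed. The mesothelium is the sheet of flat cells that covers the visceral organs and their fat depots. Its cells arise from mesoderm yet carry simple keratins, the intermediate filament proteins of one-layered epithelia, beside surface glycoproteins such as mesothelin and mucin 16. Several of these genes are shared with other epithelia, above all the urothelium that lines the urinary tract, where uroplakins build the surface plaques.

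The libraries formed 4 groups of 5. Fibro-inflammatory progenitors (FIPs) were sorted as LY6C-positive and adipogenic precursor cells (APCs) as LY6C-negative and CD9-negative, both from PDGFRβ-positive cells that lacked the blood cell marker CD45 and the endothelial marker CD31. Each population came from Mural-Zfp423 transgenic mice and from control mice, so that the groups were transgenic FIPs, control FIPs, transgenic APCs and control APCs. All mice, controls included, were 8 weeks of age per the labels, were housed at 30 °C and were fed for 1 month on a diet whose fat supplied 60% of the calories. A library held polyadenylated RNA of 2 mice. With 10 mice per genotype, the FIP and APC libraries of a genotype must share animals, and which ones share them is not stated. The name of the line points to Zfp423, a zinc finger transcription factor, placed in the mural cells of vessels, and the labels name no promoter for the transgene. Zfp423 itself averaged 5.53 ± 0.04 log2 CPM in transgenic FIPs and 5.47 ± 0.12 in control FIPs, and 4.70 ± 0.27 in transgenic APCs against 4.97 ± 0.17 in control APCs (SD, n = 5 each). Neither difference passed the test (limma, adjusted p = 0.933 in FIPs and 0.108 in APCs), so the genotype of each library rests on its label.

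Values are log2 CPM, the logarithm of read counts scaled to the size of the library, with 1 CPM or less listed as 0. The depth, estimated from the step that 1 read makes in the lowest values, was 6.61 to 8.50 megareads per library, with overlapping ranges: 7.83 to 8.50 in transgenic FIPs, 6.76 to 8.23 in control FIPs, 6.61 to 8.38 in transgenic APCs and 7.60 to 8.00 in control APCs. Genes above 0 numbered 16126 to 16244 in transgenic FIPs and 15972 to 16171 in control FIPs. They numbered 16066 to 17098 in transgenic APCs and 16484 to 17282 in control APCs, so the control groups did not overlap. The most were in control APC replicates 5 (17282) and 4 (17278) and transgenic APC replicate 1 (17098). The cause was not tested. The 10 members together took 36.4 to 198.5 CPM of a library, that is 0.00364 to 0.0199% of its reads. At this depth Upk3b rested on 69.9 to 343.1 estimated reads per library, Krt18 on 19.9 to 126.2 and Bnc1 on at most 23.0. In bulk RNA, fewer cells of a type and less RNA per cell cannot be told apart. No member encodes a surface marker of either gate, and by the gates given above CD9 was used for APCs only. Whether the gates kept or removed mesothelial cells was not tested.

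The name of the group was checked against genes that were not members. Of 15 other genes known from mesothelium, Wt1, a transcription factor of the mesothelial and visceral stromal lineage, was abundant at 6.56 to 7.81 log2 CPM, and the membrane glycoprotein Pdpn read 6.62 to 7.53. Calb2, which encodes the mesothelial marker calretinin, was listed at 0 in all 20 libraries. The urothelial uroplakins Upk1a, Upk2 and Upk3a were also present, and their mean was 0.45 to 1.46 log2 CPM in transgenic FIPs, 0.90 to 1.16 in control FIPs, 1.06 to 2.44 in transgenic APCs and 1.86 to 3.44 in control APCs. The basal keratin Krt5 and the epithelial cadherin Cdh1 reached 4.0 and 4.04 log2 CPM in control APCs, while Krt14 was listed at 0 in all 20 libraries. The keratins among the members are therefore described as simple keratins, and the name mesothelial is used for the list as chosen and not as a finding about the source of each transcript.

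Per length of transcript, the members of control APCs formed an order with wide spreads. Upk3b stood at 9.07 ± 2.93 CPM per kilobase, Upk1b at 9.06 ± 3.83, Krt19 at 8.82 ± 3.73 and Krt18 at 7.17 ± 3.83 (SD, n = 5), and these 4 did not differ beyond their spread. Msln followed at 5.53 ± 1.23, Krt8 at 5.42 ± 2.58 and Krt7 at 4.54 ± 2.15 CPM per kilobase, again within each other's spread. Lrrn4 read 2.93 ± 0.94, and the lowest were Bnc1 at 0.43 ± 0.15 and Muc16 at 0.27 ± 0.11 CPM per kilobase, all lengths being those of the longest principal transcript. Muc16 is an exceptionally long mucin transcript of 25437 bases, so that its log2 CPM exceeds that of Bnc1 although its level per length does not.

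Msln and Muc16 encode binding partners on the mesothelial surface: mesothelin is a lipid-anchored glycoprotein, and mucin 16 is the membrane mucin to which it binds. In FIPs, Msln read 2.96, 2.85, 2.65, 1.94 and 2.30 log2 CPM in transgenic libraries (replicates 1 to 5, as in all lists that follow), against 2.45, 2.50, 2.77, 3.15 and 1.93 in control libraries. In APCs, Msln read 3.55, 3.19, 2.79, 2.29 and 3.34 log2 CPM in transgenic libraries, against 3.20, 3.45, 3.49, 3.60 and 4.03 in control libraries. Every control FIP library lay below every control APC library, while transgenic FIPs and transgenic APCs overlapped. Muc16 read 0.39, 1.92, 1.14, 0.35 and 1.16 log2 CPM in transgenic FIPs, against 1.62, 1.88, 1.70, 1.91 and 0.97 in control FIPs. In APCs Muc16 read 2.14, 2.32, 1.97, 1.79 and 2.03 log2 CPM in transgenic libraries, against 1.93, 2.33, 2.91, 2.67 and 3.49 in control libraries. Replicate 2 of the transgenic FIPs was the only library of its group that reached the transgenic APCs.

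Upk3b and Upk1b are uroplakin family members found in mesothelium as well as in urothelium. Upk3b, a one-pass membrane protein widely used as a mesothelial marker, read 3.69, 4.01, 3.97, 3.16 and 3.32 log2 CPM in transgenic FIPs, against 3.93, 4.48, 3.93, 4.39 and 3.54 in control FIPs. In APCs Upk3b read 4.90, 4.22, 3.94, 3.79 and 4.32 log2 CPM in transgenic libraries, against 4.33, 4.59, 4.98, 5.30 and 5.49 in control libraries. It was the member with the highest log2 CPM in all 4 groups, and its FIP and APC values overlapped in both genotypes. Upk1b, a tetraspanin, ranged from 2.18 to 3.04 log2 CPM in transgenic FIPs, 2.52 to 3.05 in control FIPs, 2.82 to 3.97 in transgenic APCs and 3.29 to 4.72 in control APCs. In transgenic APCs 4 libraries lay between 2.82 and 3.06 log2 CPM and replicate 1 stood alone at 3.97.

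Lrrn4 encodes a membrane protein with leucine-rich repeats, and Bnc1 the zinc finger transcription factor basonuclin 1. Lrrn4 read 2.25, 2.30, 2.59, 1.94 and 1.96 log2 CPM in transgenic FIPs, against 2.10, 2.93, 2.37, 2.63 and 1.88 in control FIPs. In APCs Lrrn4 read 3.01, 2.43, 1.82, 1.93 and 2.40 log2 CPM in transgenic libraries, against 2.88, 3.07, 3.49, 3.47 and 4.03 in control libraries. Transgenic APCs thus spanned the values of FIPs, and replicate 1 was the only one of them that reached the control APCs. Bnc1 was at the edge of detection: it was listed at 0 in 3 of 5 transgenic FIPs, 1 of 5 control FIPs, 1 of 5 transgenic APCs and 0 of 5 control APCs, and its highest value was 1.59 log2 CPM. Because 1 CPM or less is listed as 0, differences of Bnc1 are limited by this floor.

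Keratins build filaments from a type II and a type I chain, and Krt8 with Krt18 is the classic pair of simple epithelia. Krt7, a type II keratin of ducts, mesothelium and urothelium, read 2.52, 2.72, 2.88, 1.94 and 1.67 log2 CPM in transgenic FIPs, against 2.77, 2.80, 2.67, 2.71 and 2.62 in control FIPs. In APCs Krt7 read 4.01, 2.92, 2.89, 3.02 and 2.49 log2 CPM in transgenic libraries, against 3.57, 3.38, 3.86, 4.86 and 4.76 in control libraries. The 5 control FIPs lay within 0.18 log2 units of each other, while the control APCs spanned 1.48 units. Krt18 read 2.10, 1.66, 2.18, 1.42 and 1.23 log2 CPM in transgenic FIPs, against 1.95, 1.98, 1.70, 1.91 and 2.18 in control FIPs. In APCs Krt18 read 3.21, 2.13, 2.10, 2.18 and 1.6 log2 CPM in transgenic libraries, against 2.53, 2.50, 2.91, 4.01 and 4.04 in control libraries. Replicates 4 and 5 of the control APCs and replicate 1 of the transgenic APCs were the highest 3 libraries for Krt18. Krt8 ranged from 1.53 to 2.14 log2 CPM in transgenic FIPs, 1.86 to 2.65 in control FIPs, 1.67 to 3.02 in transgenic APCs and 2.58 to 4.11 in control APCs. Krt19, the type I keratin that lacks most of the usual tail, ranged from 1.96 to 2.66 log2 CPM in transgenic FIPs, 2.26 to 2.74 in control FIPs, 2.52 to 3.80 in transgenic APCs and 3.01 to 4.46 in control APCs.

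**Figure D1:**
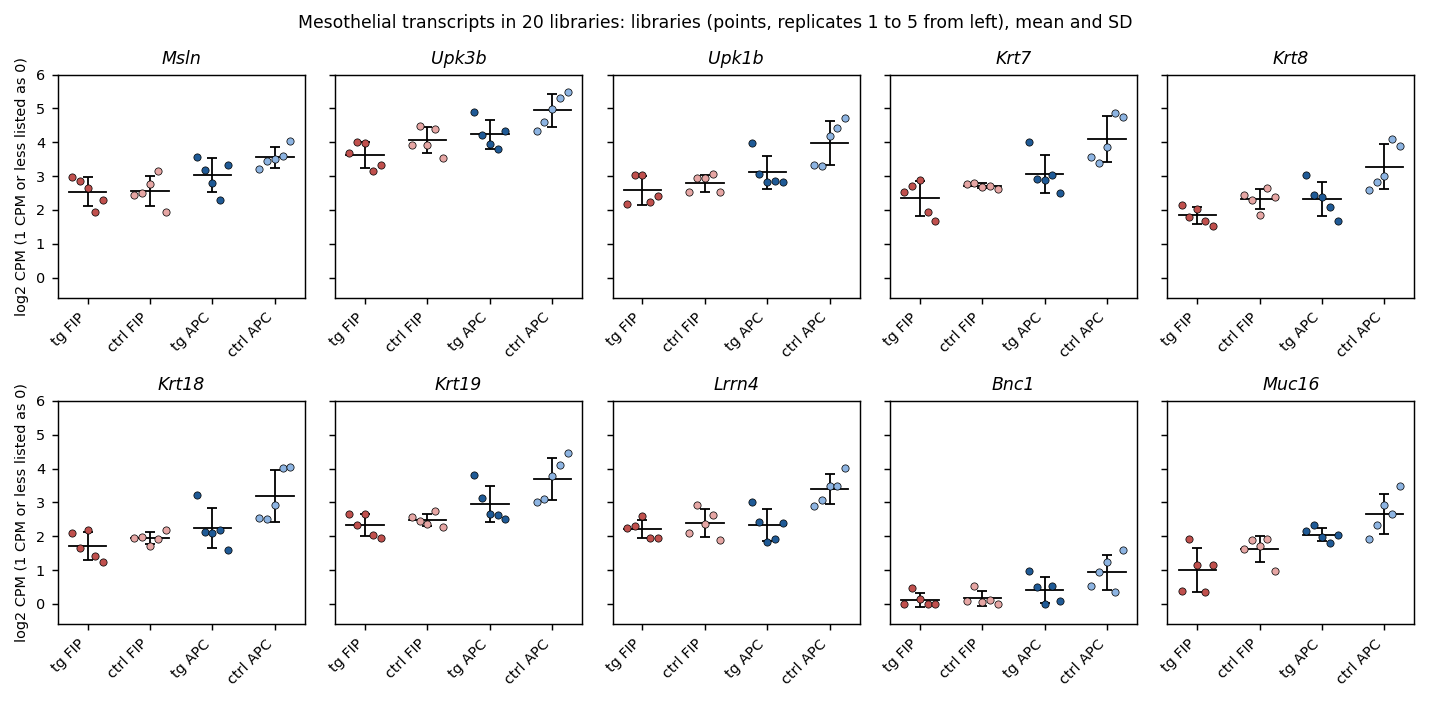
Log2 CPM of each of the 10 members (1 CPM or less listed as 0) in the 20 libraries, from left transgenic FIP, control FIP, transgenic APC and control APC; points are libraries, lines the mean and bars the SD of 5 libraries. The control APC mean is the highest and the transgenic FIP mean the lowest in 10 of 10 members.

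The control APC mean was the highest and the transgenic FIP mean the lowest in 10 of 10 members. Control APC replicate 5 was the highest of all 20 libraries in 8 members and control APC replicate 4 in the other 2. Transgenic APC replicate 1 was the highest of its group in 9 of 10 members and lay within the range of the control APCs in 10 of 10. The sum of the members was 119.1, 74.1, 60.0, 57.8 and 65.2 CPM in transgenic APCs, against 83.6, 92.0, 125.7, 171.4 and 198.5 CPM in control APCs. Between 36.4 and 61.8 CPM was found in transgenic FIPs and between 47.5 and 72.4 CPM in control FIPs.

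The first question was how the sorted populations differed within a genotype. In control mice all 10 members were lower in FIPs than in APCs, by 0.77 to 1.37 log2 units (limma over 17435 genes, Benjamini-Hochberg adjusted p under 0.05). Across all genes tested, 27.9% were lower in FIPs of control mice and 19.6% were higher. The median difference of the members was −1.03 log2 units, against −0.06 over all genes tested. Krt7 averaged 2.71 ± 0.07 log2 CPM in control FIPs and 4.09 ± 0.68 in control APCs (SD, n = 5 each), a difference of −1.37 (SE 0.30, adjusted p = 0.000768). Krt18 averaged 1.94 ± 0.17 in control FIPs and 3.20 ± 0.77 in control APCs, a difference of −1.25 (SE 0.31, adjusted p = 0.00235). Krt19 differed by −1.21 and Upk1b by −1.19 log2 units. These 3 keratins and Upk1b had the largest differences of the list, and the smallest was that of Bnc1.

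Mesothelin and mucin 16 were both lower in FIPs of control mice. Msln averaged 2.56 ± 0.45 log2 CPM in control FIPs and 3.55 ± 0.30 in control APCs, a difference of −0.99 (SE 0.25, adjusted p = 0.00249). Muc16 differed by −1.05 log2 units (SE 0.29, adjusted p = 0.00478), Lrrn4 by −1.01 (SE 0.24, adjusted p = 0.00182) and Upk3b by −0.88 (SE 0.24, adjusted p = 0.00476). Krt8 differed by −0.96 (SE 0.27) and Bnc1 by −0.77 (SE 0.21). FIPs and APCs of control mice did not overlap in 6 of the 10 members, namely Msln, Upk1b, Krt7, Krt18, Krt19 and Muc16, where 16.7% of all genes lay below without overlap. Without control APC replicates 4 and 5, the libraries highest in urothelial uroplakins, 7 of 10 members were lower in FIPs, where 22.1% of all genes were; Upk3b (−0.58, adjusted p = 0.0762), Krt8 (−0.48, adjusted p = 0.118) and Muc16 (−0.77, adjusted p = 0.0508) no longer passed.

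In transgenic mice the members lay on the same side, and fewer passed. The difference was below 0 in all 10, with a median of −0.53 log2 units against −0.01 over all genes tested, and 2 of 10 passed as lower in FIPs, where 19.0% of all genes did and 22.7% were higher. These were Muc16, which averaged 0.99 ± 0.65 log2 CPM in transgenic FIPs and 2.05 ± 0.20 in transgenic APCs (difference −1.06, SE 0.29, adjusted p = 0.00486), and Upk3b, at 3.63 ± 0.38 in transgenic FIPs and 4.23 ± 0.43 in transgenic APCs (difference −0.60, adjusted p = 0.0488). Upk3b lay close to the threshold and passed in 10 of the 20 fits that each left out a library. The adjusted p was 0.057 for Krt7 (−0.72), 0.0644 for Krt19 (−0.62) and 0.749 for Lrrn4 (−0.11). FIPs and APCs of transgenic mice overlapped in every member, and 12.4% of all genes lay below without overlap.

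**Figure D2:**
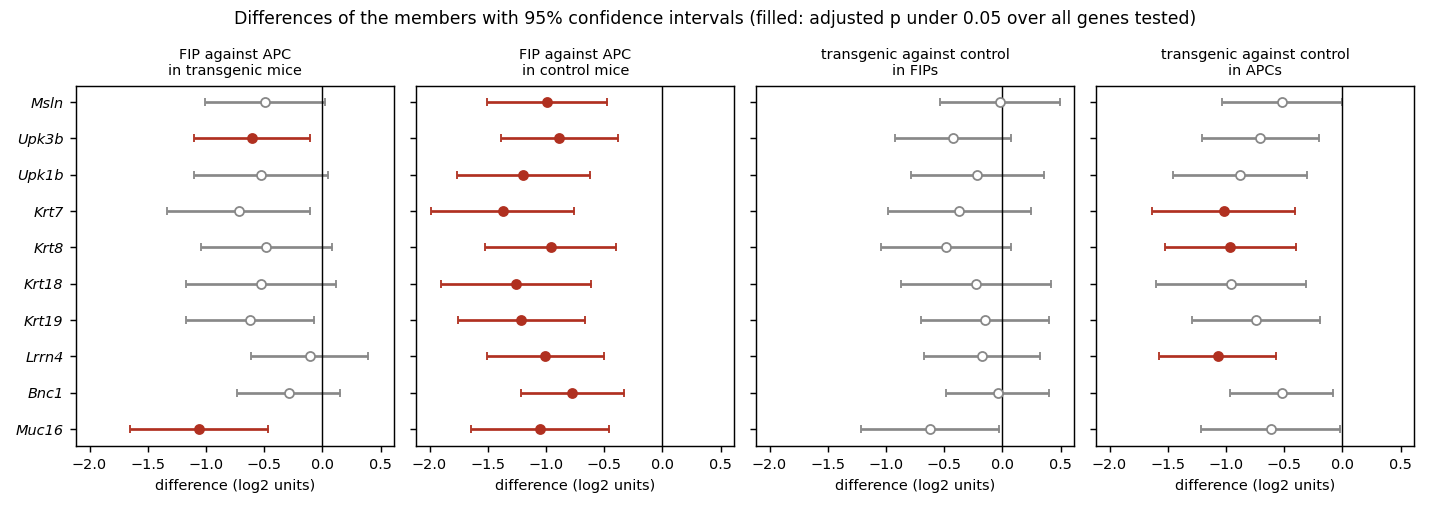
Difference of each member in log2 units (x axis) with its 95% confidence interval, FIP minus APC in the first 2 panels and transgenic minus control in the last 2; filled points have an adjusted p under 0.05 over 17435 genes. All 10 members pass in FIP against APC of control mice, 2 in transgenic mice, 0 in transgenic against control FIPs and 3 in transgenic against control APCs.

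The second question was how the genotypes differed within a population. In FIPs 0 of 10 members passed in limma, where 0.132% of all genes were lower and 0.241% higher. The 10 differences of transgenic against control FIPs were all below 0, from −0.02 for Msln to −0.62 for Muc16, with a median of −0.22 log2 units against 0.01 over all genes tested. At an unadjusted p under 0.05 in limma, 1 member was lower, Muc16 (limma adjusted p = 0.446), where 1843 of the 17435 genes had such a p in either direction. It averaged 0.99 ± 0.65 log2 CPM in transgenic FIPs and 1.62 ± 0.38 in control FIPs. The intervals were wide: for Msln the 95% confidence interval ran from −0.54 to 0.50, and for Krt7 from −0.98 to 0.25. Changes within these bounds are not excluded. Transgenic and control FIPs overlapped in every member, where 0.694% of all genes lay below without overlap.

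In APCs 3 of 10 members were lower in transgenic mice, where 5.91% of all genes were lower and 2.10% higher. Lrrn4 averaged 2.32 ± 0.47 log2 CPM in transgenic APCs and 3.39 ± 0.44 in control APCs, a difference of −1.07 (SE 0.24, adjusted p = 0.0189). Krt7 averaged 3.07 ± 0.57 in transgenic APCs and 4.09 ± 0.68 in control APCs (−1.02, SE 0.30, adjusted p = 0.0418). Krt8 averaged 2.32 ± 0.50 in transgenic APCs and 3.28 ± 0.67 in control APCs (−0.96, SE 0.27, adjusted p = 0.038). The other 7 members did not pass: their differences ran from −0.52 for Msln (adjusted p = 0.189) to −0.95 for Krt18 (adjusted p = 0.0596). All 10 differences lay below 0 with an unadjusted p under 0.05, where 4444 of the 17435 genes had such a p in either direction. The median of the members was −0.81 log2 units against −0.03 over all genes tested. Transgenic and control APCs overlapped in every member, while 1.42% of all genes lay below without overlap.

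These calls in APCs depended on single libraries. Without transgenic APC replicate 1, 8 members passed as lower in limma, where 12.3% of all genes did. Without control APC replicate 5, 0 members passed, where 0.671% of all genes were lower, and 10 of 10 differences were still below 0. In that fit 7 members and 3336 of the 17435 genes had an unadjusted p under 0.05. When only the APC libraries were fitted, 0 of the 17435 genes passed, and 7 members and 3602 genes had an unadjusted p under 0.05. Without both control APC replicates 4 and 5, 0 members passed in limma, where 0.281% of all genes were lower. The 2 members with an unadjusted p under 0.05 were then Lrrn4 and Bnc1, where 2701 of the 17435 genes had such a p. In that fit Lrrn4 differed by −0.83 (adjusted p = 0.151), Bnc1 by −0.50 (adjusted p = 0.266), Krt7 by −0.54 (adjusted p = 0.367) and Krt8 by −0.49 (adjusted p = 0.338). Among all genes, 366 were higher and 1030 lower in transgenic APCs, against 1376 higher and 823 lower when each library was centred on its median; the 10 members stayed below 0 under that scaling. FIPs against APCs of control mice and transgenic against control APCs draw on the same control APC libraries, so these 2 comparisons are not independent of each other.

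Whether the genotype difference itself differed between the populations was tested by the interaction. In limma 0 of the members and 0 of the 17435 genes passed (0.00%), while 1 member and 2388 genes had an unadjusted p under 0.05. This was Lrrn4, with an interaction of 0.90 log2 units (95% confidence interval 0.19 to 1.6, limma adjusted p = 0.273), which is the difference in FIPs minus that in APCs. The values of 9 of 10 members lay above 0, with a median of 0.55 log2 units against 0.05 over all genes tested. A different genotype effect in FIPs and APCs was thus not shown for any member.

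Genes of other tissues moved with these results. The urothelial uroplakins Upk1a (−1.42 log2 units) and Upk3a (−1.47) were lower in FIPs than in APCs of control mice. Upk2 (−1.62) was above 0 in 4 FIP and 10 APC libraries, so it entered the test only through APCs. It was listed at 0 in all 5 control FIPs, so this difference is limited by the floor and is not counted as a call. In transgenic mice only Upk1a of the 3 passed in limma (−0.80, adjusted p = 0.0153). In transgenic against control APCs, where Upk2 was above 0 in all 10 libraries, only Upk2 passed (−0.93, limma adjusted p = 0.0471). The 3 together took 2.55 to 8.82 CPM in transgenic FIPs, 5.48 to 6.99 in control FIPs, 7.86 to 18.9 in transgenic APCs and 12.8 to 35.3 in control APCs. Of the general epithelial genes, Esrp1, Ocln and Elf3 were above 0 in 5 libraries each, all of them APCs, and entered the test only through those, so no count of calls is given for that list. Its summed level was 5.29 to 12.3 CPM in transgenic FIPs, 8.71 to 12.8 in control FIPs, 7.12 to 28.4 in transgenic APCs and 16.1 to 57.3 in control APCs. Haemoglobin and other erythroid genes had a mean of 5.48 to 6.40 log2 CPM in transgenic FIPs, 6.09 to 6.27 in control FIPs, 6.0 to 7.28 in transgenic APCs and 6.81 to 7.84 in control APCs. All 5 erythroid genes were lower in FIPs than in APCs of control mice, 3 of 5 in transgenic mice, and all 5 in transgenic against control APCs. The shares of all genes tested that were lower in these comparisons were 27.9%, 19.0% and 5.91%.

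Vascular and blood lineage genes were counted in the same way. Across all genes tested, 27.9% were lower and 19.6% higher in FIPs than in APCs of control mice, and 19.0% and 22.7% in transgenic mice. In transgenic against control APCs, 5.91% of all genes were lower and 2.10% higher. Of 10 endothelial genes, 9 were lower and 1 higher in FIPs than in APCs of control mice, against 0 lower and 1 higher in transgenic mice. All 6 mural cell genes were lower in FIPs of control mice and 3 of 6 in FIPs of transgenic mice. Of 10 macrophage genes, 7 were lower in transgenic than in control APCs and 1 was lower in FIPs than in APCs of each genotype. In transgenic against control APCs, 1 endothelial and 1 mural cell gene were lower. The summed level of the macrophage genes was 148.4 to 266.7 CPM in transgenic FIPs, 220.7 to 403.4 in control FIPs, 182.3 to 287.6 in transgenic APCs and 279.1 to 463.9 in control APCs. Between genotypes in FIPs, 0 genes of these lists passed in limma, where 0.132% of all genes were lower and 0.241% higher. At an unadjusted p under 0.05, 7 endothelial and 2 mural cell genes were higher, 7 macrophage genes were lower and 0 erythroid genes reached it. Of all 17435 genes, 1843 had such a p in either direction. The part of urothelial, blood, vessel or other epithelial RNA in the members' differences was not tested. The uroplakin mean was 0.90 to 1.16 log2 CPM in control FIPs and 1.86 to 3.44 in control APCs. The erythroid mean was 6.09 to 6.27 and 6.81 to 7.84. Neither overlapped, so a fit with either as a covariate cannot tell it from the population, and no conclusion is drawn from it. With the uroplakin mean as a covariate, 0 of 10 members passed in limma in FIPs against APCs of control mice, and the median difference was −0.15 log2 units. At an unadjusted p under 0.05 there were 0 members and 6409 of the 17435 genes. In that fit 12.2% of all genes were lower and 14.9% higher, against 27.9% and 19.6% without the covariate. With the erythroid mean as a covariate the count was again 0 and the median was 0.03, where 11.3% of all genes were lower and 13.9% higher.

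The other genes known from mesothelium did not move as a block. Of 14 tested in control mice, 6 were lower and 3 higher in FIPs than in APCs, where 27.9% of all genes were lower and 19.6% higher. The lower ones were Gpm6a, a neuronal and mesothelial membrane glycoprotein (−1.16), the large receptor-like gene Pkhd1l1 (−1.20), Nkain4 (−0.53), the tight junction gene Cldn15 (−1.65), the laminin receptor Bcam (−0.68) and the protease inhibitor Slpi (−0.86). The higher ones were Pdpn (0.47), the lubricin gene Prg4 (2.67) and Dmkn (2.74). In transgenic mice 6 were higher in FIPs (Wt1, Pdpn, Fgf9, Prg4, Dmkn and Anxa8) and 2 lower (Nkain4 and Cldn15). There 22.7% of all genes were higher and 19.0% lower. Between genotypes 0 of 14 passed in FIPs, where 0.132% of all genes were lower and 0.241% higher. In transgenic APCs 4 were lower, where 5.91% of all genes were: Gpm6a (−0.90), the growth factor Fgf9 (−0.89), Prg4 (−0.78) and Anxa8 (−1.28). Fgf9 was listed at 0 in 4 of 5 transgenic APCs and reached 0.21 log2 CPM at most there. Its calls against transgenic APCs, between genotypes and between populations, are therefore limited by the floor. Dmkn was listed at 0 in 1 of 5 control and 2 of 5 transgenic APCs, which limits its differences in the same way. Wt1 differed by 0.32 log2 units between FIPs and APCs of control mice and did not pass (adjusted p = 0.0552).

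The members varied together from library to library. Taken as deviations from the 4 group means over 20 libraries, the 45 pairs of members had a Pearson r of 0.26 to 0.94 with a median of 0.66. The closest pairs were Krt7 with Krt18 (r = 0.94), Upk3b with Lrrn4 (r = 0.94) and Krt8 with Krt18 (r = 0.92), and the loosest was Krt8 with Bnc1 (r = 0.26). Libraries of a genotype share mice and each value is a share of its own library, so the correlations describe these libraries and carry no test. The keratins were close to the urothelial uroplakins: against the mean of Upk1a, Upk2 and Upk3a, Krt18 had r = 0.94 (Spearman rho 0.91), Krt7 0.89 and Krt8 0.83. The keratins were about as close to the mean of the erythroid genes, with r = 0.93 for Krt7, 0.90 for Krt18, 0.87 for Krt19 and 0.82 for Krt8. This was not particular to keratins: against the erythroid mean Upk1b had 0.81, Upk3b 0.77 and Lrrn4 0.67. Msln had 0.52, Bnc1 0.48 and Muc16 0.43. Against the uroplakins the correlation was 0.62 for Upk3b, 0.52 for Lrrn4, 0.38 for Msln, 0.37 for Bnc1 and 0.34 for Muc16. Without the 2 libraries farthest from the median, Krt18 kept r = 0.90 while Msln had 0.14, and Bnc1 turned to −0.08.

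The members were also set against Gpm6a, which was picked for this purpose after its values were seen. With the mean of the members Gpm6a had r = 0.85, the highest of the other mesothelial genes above 0 in all libraries. The rest of these genes ran from −0.53 to 0.78. Bcam had 0.78, Slpi 0.76 and Anxa8 0.67, against 0.24 for Pdpn, 0.03 for Nkain4, 0.01 for Cldn15 and −0.48 for Wt1. Gpm6a therefore does not stand for that list. Against Gpm6a, Upk3b had r = 0.86 (rho 0.89), Lrrn4 0.85 (rho 0.81) and Msln 0.74 (rho 0.74). Krt7 had 0.67, Krt18 0.65 and Krt8 0.63, and the lowest were Bnc1 with 0.57 and Muc16 with 0.54, so the members far from the uroplakins were not all close to Gpm6a. Krt19 and Upk1b lay between, with r = 0.81 and 0.70 against the uroplakins and 0.80 and 0.75 against Gpm6a. The relation to the uroplakins was not equal in both populations. Upk1b had r = 0.86 in the 10 APC libraries and 0.17 in the 10 FIP libraries. Lrrn4 had 0.64 and 0.24, Bnc1 0.43 and 0.09 and Muc16 0.57 and 0.04. By contrast, Krt18 had 0.96 and 0.84, Krt19 0.84 and 0.70 and Msln 0.39 and 0.45. In single libraries, Krt18 minus Msln was −0.86, −1.19, −0.47, −0.52 and −1.07 log2 units in transgenic FIPs, against −0.50, −0.52, −1.07, −1.24 and 0.25 in control FIPs. In APCs it was −0.34, −1.06, −0.69, −0.11 and −1.74 in transgenic libraries, against −0.67, −0.95, −0.58, 0.41 and 0.01 in control libraries. In control FIPs replicate 5 had both the highest uroplakin mean and the highest distance, and in control APCs replicates 4 and 5 stood highest in both. In transgenic APCs replicate 1 had the highest uroplakin mean and replicate 4 the highest distance. In transgenic FIPs replicate 4, with the lowest uroplakin mean, lay above replicate 1, with the highest. The cause of this distance was not tested.

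**Figure D3:**
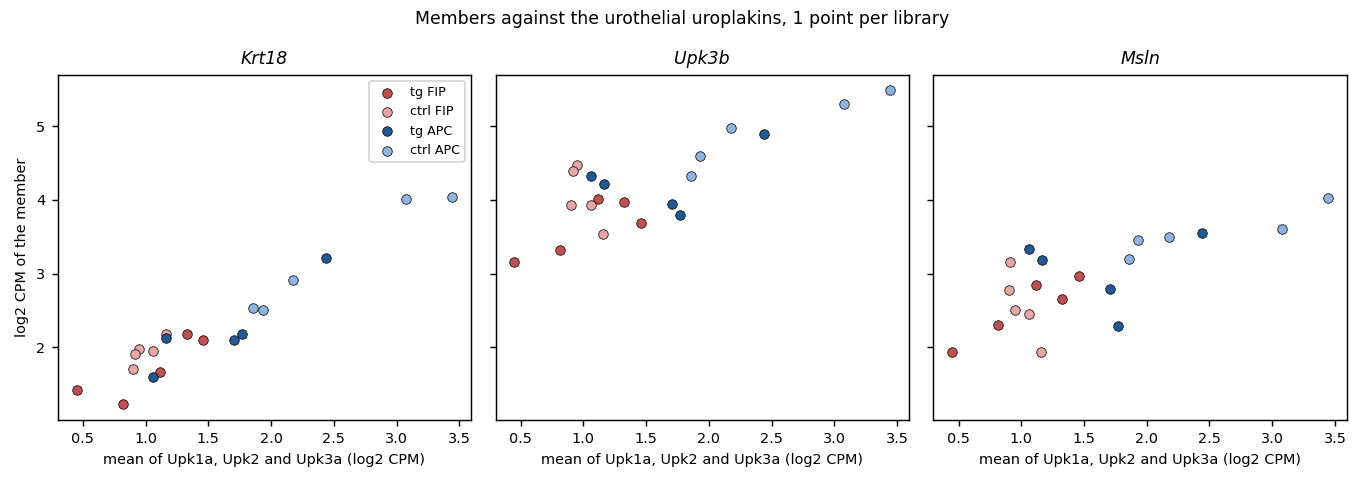
Log2 CPM of Krt18, Upk3b and Msln (y axis) against the mean log2 CPM of the urothelial uroplakins Upk1a, Upk2 and Upk3a (x axis), 1 point per library, coloured by group. Krt18 follows the uroplakins across all 20 libraries (r = 0.94 of deviations from group means), and Msln does so less closely (r = 0.38).

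**Figure D4:**
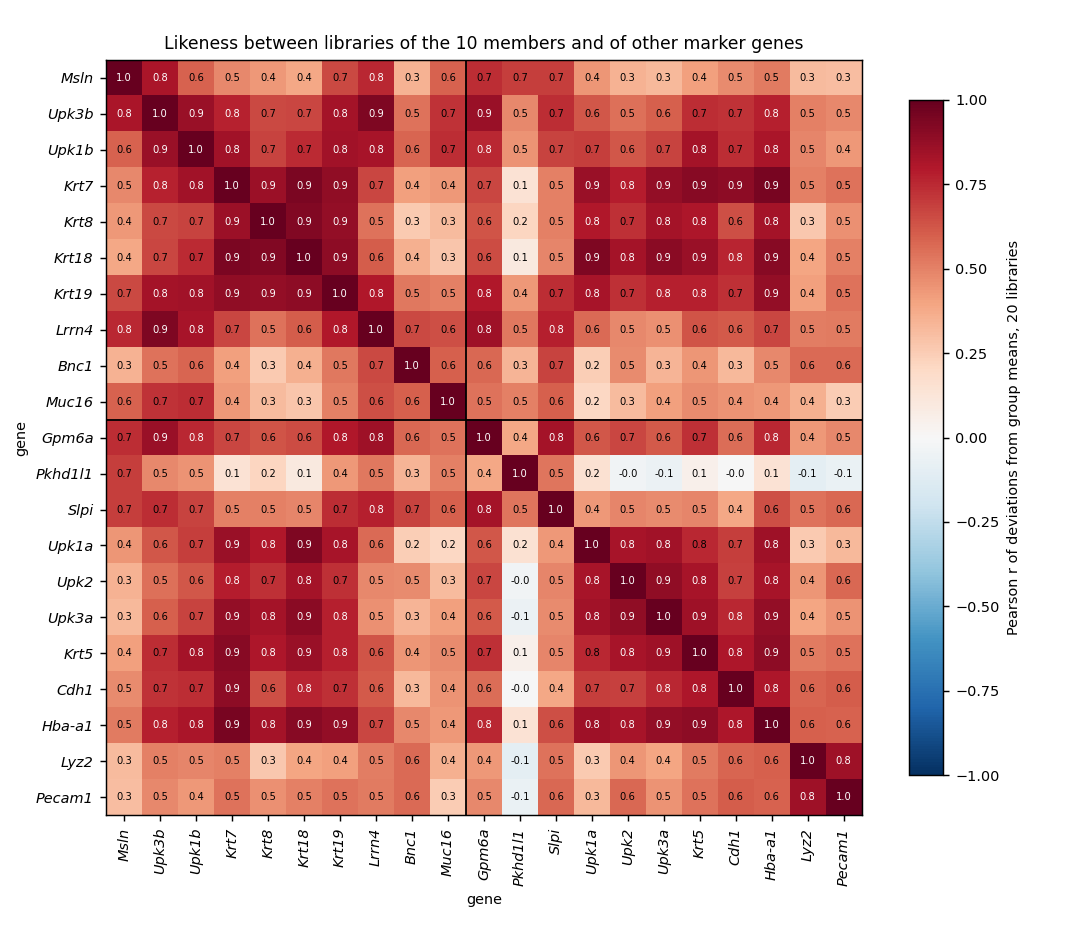
Pearson r of deviations from the 4 group means over 20 libraries for the 10 members (before the black lines) and for other mesothelial, urothelial, epithelial, blood and endothelial marker genes, both axes being genes. Krt7, Krt8, Krt18 and Krt19 share high values with each other, with the uroplakins and with Hba-a1, and Upk3b and Lrrn4 with each other and with Gpm6a. Upk1b and Upk3b also have r = 0.82 and 0.78 with Hba-a1.

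By a fixed rule, the non-member genes most like the mean of the members were sought among 12564 genes above 0 in all libraries, over the same deviations. The 8 closest were Clu (r = 0.92), Tmem151a (0.91), Hbb-bs, Kcnj15, Ltc4s, Retsat, Hba-a1 and Hipk2 (0.89 each). Hbb-bs and Hba-a1 are haemoglobin chains of red blood cells. The mean of the members had r = 0.88 (rho 0.87) with the erythroid mean and 0.79 (rho 0.71) with the uroplakin mean, and the erythroid mean and the uroplakin mean had r = 0.89 with each other.

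The promoters of the genes that moved most closely together are shown, 250 bases before the RefSeq start of each gene, 5′ to 3′ on the gene's strand, from RefSeq (GRCm38.p6). RefSeq promoters were matched for 7 of the 10 members. The keratin genes Krt7, Krt8 and Krt18 lie on chromosome 15, with Krt8 (101996698 to 102004482, minus strand) beside Krt18 (102028180 to 102032027, plus strand) and Krt7 at 101411043 to 101430313. Upk3b lies on chromosome 5 (136038496 to 136046487) and Lrrn4 on chromosome 2 (132868305 to 132880891), so the second closest pair is not linked. These gene bounds are those of GENCODE M21 and take in all transcripts, and the RefSeq start lies 1360 bases inside them for Krt7, 140 for Krt8, 36 for Krt18 and 29 for Lrrn4, so the printed bases of these 4 overlap the bounds. Capitals mark a GC box in Krt7 and a TEAD site in Upk3b and Lrrn4, on either strand.
Krt7, chr15:101412153-101412402, plus strand: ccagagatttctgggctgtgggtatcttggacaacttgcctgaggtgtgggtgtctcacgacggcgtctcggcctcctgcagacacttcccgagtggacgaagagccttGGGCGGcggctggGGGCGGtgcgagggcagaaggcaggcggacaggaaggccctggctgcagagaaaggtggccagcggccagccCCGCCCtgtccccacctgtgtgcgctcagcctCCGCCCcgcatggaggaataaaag
Krt8, chr15:102004343-102004592, minus strand: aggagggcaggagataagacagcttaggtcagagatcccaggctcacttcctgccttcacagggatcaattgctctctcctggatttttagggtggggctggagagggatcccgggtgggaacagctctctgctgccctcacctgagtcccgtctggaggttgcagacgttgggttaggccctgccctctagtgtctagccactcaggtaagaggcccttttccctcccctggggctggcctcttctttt
Krt18, chr15:102027966-102028215, plus strand: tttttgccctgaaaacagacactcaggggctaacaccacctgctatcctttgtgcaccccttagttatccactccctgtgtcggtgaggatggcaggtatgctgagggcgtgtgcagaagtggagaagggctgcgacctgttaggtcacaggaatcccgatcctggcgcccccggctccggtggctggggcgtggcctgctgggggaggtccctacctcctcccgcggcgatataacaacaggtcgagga
Upk3b, chr5:136038246-136038495, plus strand: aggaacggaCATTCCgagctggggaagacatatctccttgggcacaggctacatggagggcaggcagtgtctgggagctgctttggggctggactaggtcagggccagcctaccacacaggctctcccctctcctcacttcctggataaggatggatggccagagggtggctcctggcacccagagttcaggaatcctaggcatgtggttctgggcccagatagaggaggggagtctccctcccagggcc
Lrrn4, chr2:132880863-132881112, minus strand: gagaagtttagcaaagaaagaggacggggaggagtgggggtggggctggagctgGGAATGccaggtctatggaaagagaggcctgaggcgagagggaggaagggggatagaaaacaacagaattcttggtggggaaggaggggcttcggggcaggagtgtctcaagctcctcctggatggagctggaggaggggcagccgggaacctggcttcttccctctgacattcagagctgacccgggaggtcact

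The search covered both strands of 300 bases, 250 before and 50 after the start of each gene. A GC box, GGGCGG, occurred in Krt7 and Bnc1 among the 7 members and in 35.66% of 32851 promoters. A TEAD site, GGAATG, occurred in Upk3b and Lrrn4 and in 14.66% of promoters. A TATA box, TATAAA, occurred in Krt8, not within the printed bases, and in 13.62% of promoters. An AP-1 site, TGANTCA, occurred in none of the 7 and in 7.81% of promoters, and no motif contains another. The 3 keratin promoters shared none of these letters with each other. A match is a description of the letters and not a site of binding.

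Copies and overlaps that could limit the counting were searched for each member, copies over at least 150 bases. Krt8 has a pseudogene copy, Krt8-ps, alike at 98.6% over 941 bases and listed at 0.12 log2 CPM at most, and Krt18 has Gm5200, alike at 90.5% over 1267 bases and listed at 0 throughout, and reads that fit a keratin and its copy could be counted for either. Near its 3′ end, at bases 3825 to 4027 of 4094, the principal transcript of Krt7 has a stretch of which 151 to 191 bases are alike at 90 to 93.1% with each of 80 other genes, and 67 of these were above 0 in a library, Kif1b being the highest with a mean of 8.25 log2 CPM. Whether reads of such stretches were counted for Krt7 was not tested. Krt7, Krt8 and Bnc1 overlap Gm671, Gm36026 and 4833418N17Rik on the opposite strand, and those were listed at 0 in all libraries. Whether the counting used strand is not given in the sources available. Of 54 keratin genes in the table, 12 exceeded 0 in any library and 7 in all 20: Krt5, Krt7, Krt8, Krt10, Krt18, Krt19 and Krt80.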

How the data were processed

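RNA sequencing covered 20 libraries made from polyadenylated RNA. The authors deposited log2 CPM for 54304 genes in 1 table, with 2 decimals, where any CPM up to 1 stands as 0. Per the submitters' processing notes, the tools were Trim Galore 0.4.1, HISAT2 2.0.1, featureCounts 1.4.6 and DESeq2 1.6.3 and the build was GRCm38 (mm10). The annotation release and the strandedness were not given in the sources used here.

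Genes above 0 in at least 5 libraries (17435) entered 1 model over all groups (limma 3.58.1 in R 4.3.3, each group with its own mean, eBayes with trend). This left 16 residual degrees of freedom, and p-values were adjusted by Benjamini-Hochberg over all genes tested, at 0.05. Libraries were taken as independent, so p-values measure the spread between pools of 2 mice. The procedure was tested on simulated data. Low values lay within 0.0051 log2 units of whole reads for 74.6 to 78.8% of them, too few for a count test, which was not run. Columns were matched to samples by name. Names and coordinates came from GENCODE M21 (54276 IDs matched), and promoters from RefSeq. Alternatives were other scales, filters, normalizations, variance models and fits and each library left out. Uroplakin or erythroid covariates and the fit without 2 libraries were chosen after seeing the data. The members and lists were chosen with earlier results of these data known. All 10 members are named, as are other mesothelial genes that passed in any comparison, up to 3 genes of each further list, and the 8 non-members most like the members; Gpm6a as a point of comparison, Cdh1, Cldn3 and Krt5 in places, Esrp1, Ocln and Elf3, and replicate-level epididymal genes were picked after their values were seen.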

Additional observations from a re-analysis of the deposited data

Results flagged for a closer look

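A library far from the other 4 of its group was found for 2 of the 40 combinations of member and group that were checked, about the number that chance gives at 1 in 20. Upk1b was 3.97 log2 CPM in transgenic APC replicate 1, and the nearest library of that group was at 3.06. Bnc1 was 0.53 log2 CPM in control FIP replicate 2, with the next library at 0.13, and without that library the difference of Bnc1 between transgenic and control FIPs was 0.05 log2 units in place of −0.04.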

How the results depend on the processing

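In FIPs against APCs of control mice, 7 to 10 members were lower under every alternative other than the covariates, 10 in each of the 20 fits that left out a library and 9 under log2(CPM + 1) and quantile normalization, where Bnc1 did not pass. With the uroplakin or erythroid covariate the count was 0, and neither covariate overlapped between control FIPs and control APCs. In FIPs against APCs of transgenic mice, 2 members were lower, against 1 under log2(CPM + 1), no filter, robust variance, array weights, the replicate block and both covariates, and 4 under median centring, quantile normalization and without control APC replicates 4 and 5; leaving out 1 library gave 1 to 4 (4 without control APC replicate 5). In transgenic against control APCs, 3 were lower, against 1 with no filter, quantile normalization or the replicate block, 7 with array weights, and 0 with only the groups compared, without the 2 control APC libraries or with either covariate; leaving out 1 library gave 0 to 8. The cause of these moves was not tested. Replicate numbers were not taken to pair the samples: same-numbered FIP and APC libraries of a genotype correlated at 0.0364 to 0.333, with 5 of 10 above 0.1 and 5 of 10 closest to their own number, and transgenic and control libraries at −0.32 to 0.15. That some same-numbered FIP and APC libraries came from the same mice is possible and was not settled by these values. Directions reversed for small differences. Lrrn4 in FIPs against APCs of transgenic mice was 0.0602 with array weights and −0.23 to 0.063 with a library left out. Msln ran from −0.18 to 0.13 and Bnc1 from −0.13 to 0.054 in transgenic against control FIPs with a library left out. The interaction of Muc16 was 0.10 under log2(CPM + 1) and −0.24 to 0.18 with a library left out, and that of Upk3b was −0.0247 without the 2 control APC libraries. Median centring moved the interaction's median over all genes to −0.06, against 0.05 as deposited, and that of the members to 0.43. It also turned the balance of calls over all genes in FIPs against APCs, to 3185 higher and 4091 lower in transgenic mice (3962 and 3313 as deposited) and to 4178 higher and 3740 lower in control mice (3422 and 4866). With array weights 176 genes passed the interaction, and without transgenic APC replicate 1, 331. Depth limits Bnc1, at 23.0 reads or fewer, most.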

Other observations

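Genes of the epididymis, which lies beside the gonadal fat, were nearly absent, with exceptions. Control APC replicate 2 read 1.44 log2 CPM for Lcn8, 0.95 for Lcn9, 1.57 for Adam7 and 1.21 for Rnase10, while Lcn8, Lcn9 and Adam7 were listed at 0 in the other 19 libraries. Rnase10 was above 0 in 8 FIP and 2 APC libraries. It read 0.25 to 0.84 log2 CPM in transgenic FIPs, 0.00 to 0.14 in control FIPs and 0.00 to 0.33 in transgenic APCs.

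Cldn3, a tight junction gene of epithelia, was above 0 in 9 FIP and 2 APC libraries. It read 0.00 to 1.34 log2 CPM in transgenic FIPs and 0.30 to 1.62 in control FIPs, against 0.00 to 0.06 in transgenic APCs and 0.00 to 0.03 in control APCs. The desmosomal plaque gene Dsp was also higher in FIPs, by 2.83 log2 units against APCs of control mice. The lists of these 2 genes went the other way in control mice. The 8 desmosome genes together took 221.3 to 270.6 CPM in control FIPs and 356.1 to 517.2 in control APCs. The general epithelial genes, Cldn3 included, took 8.71 to 12.8 CPM in control FIPs and 16.1 to 57.3 in control APCs.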
